A study of Mus musculus with 16 samples.

Results

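The anoctamin genes, Ano1 to Ano10 (also named Tmem16), were followed in ribosome-bound and total RNA of mouse dorsal root ganglia (DRG), the ganglia that hold the cell bodies of the body's sensory neurons. Members were taken by gene symbol: all 10 were among the 53379 gene IDs of the tables, and 6 of them passed the filter on low values that left 16099 genes for testing. Those 6 were Ano1, Ano3, Ano4, Ano6, Ano8 and Ano10, and the 4 below the filter were Ano2, Ano5, Ano7 and Ano9.

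Anoctamins are membrane proteins that work in pairs and share a fold, but they do different jobs. Ano1 and Ano2 are chloride channels opened by intracellular calcium; Ano1 has been described in mouse nociceptors, where it opens to heat and downstream of Gq-coupled receptors, and Ano2 carries chloride current in olfactory neurons. Ano6 is a calcium-dependent scramblase, which lets phosphatidylserine cross the plasma membrane, and several other members have been assigned scramblase rather than channel activity. Ano3 has been reported in rat nociceptors to raise the activity of Slack, the sodium-activated potassium channel encoded by Kcnt1. Chloride channels depolarise sensory neurons because these cells accumulate chloride through the cotransporter Slc12a2.

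All mice were naive Nav1.8-Cre animals carrying Rosa26fsTRAP, on a C57BL/6J background, littermates aged 8 to 12 weeks. The Cre is driven by the promoter of Scn10a (Nav1.8), and it turns on EGFP-L10a, a tagged ribosomal protein, in neurons with Nav1.8, most of which are nociceptors; the tag therefore follows the activity of that promoter, past or present. Each replicate was a pool of DRG from 3 mice of one sex, with 4 pools of females (F1 to F4) and 4 of males (M1 to M4), 24 mice in all. Every pool gave an IP library, from RNA bound to ribosomes that were pulled down with antibody to GFP, and an IN library, from the total RNA of the whole ganglia, so there were 4 groups of 4 libraries: F IP, M IP, F IN and M IN.

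Values are the authors' TPM, transcript abundances per length with the same total in every library, rescaled here between libraries by the median of ratios and called scaled TPM; TPM keep no depth, so read depth per library is unknown. Nuclear protein-coding genes, without those encoded in mitochondria, took 44.9% to 79.5% of the TPM of IP libraries and 9.58% to 13.3% of the TPM of IN libraries. Scn10a averaged 382 scaled TPM in IP and 125 in IN, a log2 change of 1.60 ± 0.08 (SE). The F2 IP library stood apart from the other IP libraries: its nuclear protein-coding share was the lowest, at 44.9%, and it had the highest IP sum for 6 of 9 marker lists of cell types. The changes of Ano1, Ano4, Ano6, Ano8 and Ano10 between IP and IN, and the sex difference of Ano10 in IP, are also given without pool F2.

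The start regions of 3 members are shown: Ano3, the most abundant member and higher in IP; Ano1, with the largest decrease in IP after scaling; and Ano10, which was higher in IP like Ano3 but by less, and differs from it in base composition. Each is 250 bases before to 50 after a RefSeq start site, from the GRCm38.p6 assembly, 5′ to 3′ on the gene's strand; all 3 lie on the minus strand. Capitals mark GC boxes (GGGCGG or CCGCCC), cyclic AMP response element cores (TGACG or CGTCA) and RUNX cores (TGTGGT or ACCACA), searched on both strands, and no match overlapped another in these regions.
Ano3, chr2:110950195-110950494: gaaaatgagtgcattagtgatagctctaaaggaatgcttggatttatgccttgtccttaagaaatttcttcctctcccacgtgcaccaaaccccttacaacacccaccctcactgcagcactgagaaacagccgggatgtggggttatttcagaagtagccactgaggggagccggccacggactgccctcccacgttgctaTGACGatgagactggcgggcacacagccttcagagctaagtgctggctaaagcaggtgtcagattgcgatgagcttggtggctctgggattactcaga
Ano10, chr9:122294374-122294673: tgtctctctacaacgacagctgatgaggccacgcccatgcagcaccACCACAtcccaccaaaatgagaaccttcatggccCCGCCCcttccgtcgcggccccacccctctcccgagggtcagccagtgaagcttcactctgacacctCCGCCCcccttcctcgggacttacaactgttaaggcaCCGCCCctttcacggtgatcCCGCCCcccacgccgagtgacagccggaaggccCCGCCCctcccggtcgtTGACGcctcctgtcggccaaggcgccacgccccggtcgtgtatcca
Ano1, chr7:144738524-144738823: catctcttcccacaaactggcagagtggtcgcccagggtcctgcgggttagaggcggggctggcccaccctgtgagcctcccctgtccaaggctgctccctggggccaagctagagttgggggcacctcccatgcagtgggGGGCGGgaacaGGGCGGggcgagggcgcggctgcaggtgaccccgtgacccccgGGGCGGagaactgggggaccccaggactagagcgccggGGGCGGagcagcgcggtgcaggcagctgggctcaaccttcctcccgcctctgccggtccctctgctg

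RefSeq lists 2 start regions for Ano3, and the one shown is the nearer to the 5′ end of the gene as deposited. It was 52.0% G and C with 8 CpG and held no GC box, 1 cyclic AMP response element core and 1 E-box (CACGTG, not in capitals). The Ano10 region was 65.7% G and C with 24 CpG and held 5 GC boxes, 1 cyclic AMP response element core and 1 RUNX core. The Ano1 region was 71.7% G and C with 18 CpG and held 4 GC boxes. Over the 32851 RefSeq start regions of the same length, 35.7% held a GC box, 20.8% a cyclic AMP response element core, 16.8% a RUNX core and 7.15% the E-box; the median region was 52.7% G and C with 7 CpG. The other Ano3 region, chr2:110840010-110840309, was 43.7% G and C with 4 CpG and held a TATAAA but no GC box, cyclic AMP response element core, RUNX core or E-box. RefSeq had start regions for 8 of the 10 members, all but Ano8 and Ano9, 11 regions in all. Neither TATAAA nor TAATTA, held by 13.6% and 5.29% of all regions, was found in the 3 regions shown. The Ano1 start site used here lies 13401 bases inside the 5′ end of the gene as deposited, and the Ano3 site 679 bases inside.

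In the deposited annotation (GRCm38), the genes are spread over 8 chromosomes. Ano3 (ENSMUSG00000074968.11) spans chr2:110655201-110950923 on the minus strand and Ano1 (ENSMUSG00000031075.18) spans chr7:144588549-144751974 on the minus strand. Ano4 (ENSMUSG00000035189.16) is the longest, at 395.8 kb on chromosome 10, and Ano8 (ENSMUSG00000034863.9) the shortest, at 9.945 kb on chromosome 8. Ano6 (ENSMUSG00000064210.7) lies on chromosome 15 and Ano10 (ENSMUSG00000037949.8) on chromosome 9. Ano8 shares 80 bases with Dda1 on the opposite strand, which averaged 18.0 scaled TPM in IP and 13.9 in IN. The span of Muc15, at 0.0219 in IP and 0.0406 in IN, touches an exon of Ano3, also on the opposite strand. So do those of A130051J06Rik (0.413 and 0.278) and AC113178.1 (0.00326 and 0.000543) for Ano6. No source used here says whether counting used strand, so reads from such overlaps cannot be told apart.

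Relative to the other genes of the same libraries, the family split. Ano3, Ano8 and Ano10 were higher in the ribosome-bound RNA of Nav1.8 neurons than in whole-ganglion RNA, and Ano6, Ano4 and Ano1 were lower. On the deposited TPM, before scaling, Ano6 and Ano4 had the other sign, and Ano6 lay close to the median of all genes (-0.08 relative to it). All 6 tested members passed the adjusted threshold of 0.05 (limma with pool as a block, Benjamini-Hochberg over 16099 genes), 3 in each direction, where 79.4% of all genes passed it, 40.5% higher and 38.9% lower. A call alone is therefore ordinary in this comparison, and the sizes and directions carry the description. The median log2 change was 0.03 over the 6 members and 0.02 over all genes tested.

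**Figure D1:**
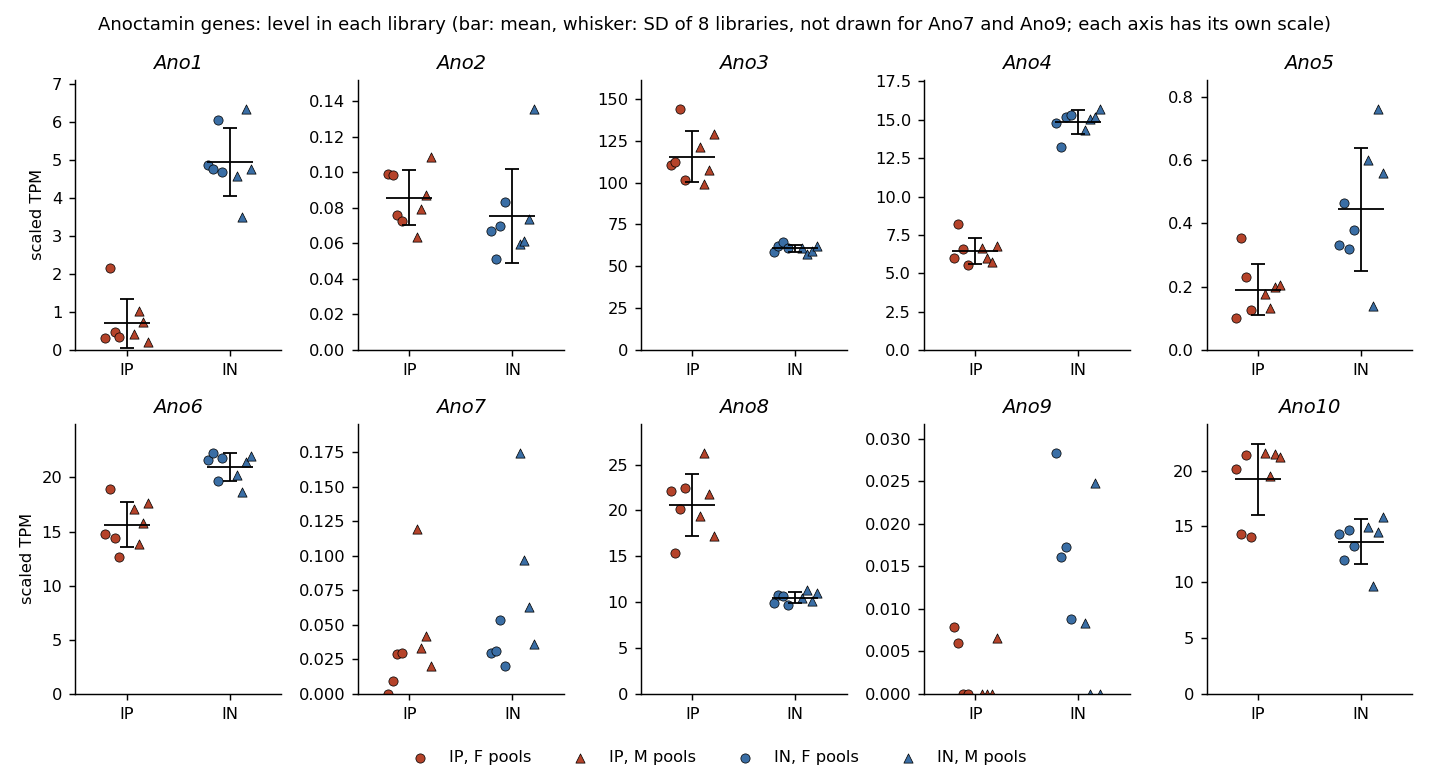
Scaled TPM of each anoctamin gene in the 8 IP libraries (left of each panel) and 8 IN libraries (right); circles are F pools, triangles M pools, bars the mean and whiskers the SD. Ano3 reaches 144 scaled TPM in IP, Ano1 sits near the bottom of its axis in IP apart from 1 F library at 2.17, and Ano2, Ano5, Ano7 and Ano9 stay under 1 scaled TPM in every library.

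Ano3, the member tied to the Slack channel, was the family's most abundant transcript in both fractions. Its scaled TPM in the F1 to F4 pools were 110, 112, 144 and 102 in IP, against 58.6, 62.4, 64.3 and 60.9 in IN. In the M1 to M4 pools they were 121, 98.9, 107 and 129 in IP, against 60.9, 57.3, 58.9 and 62.0 in IN. The lowest IP library was above the highest IN library, and all 8 pools were higher in IP. Over the 8 pools Ano3 averaged 116 ± 15.1 in IP libraries, against 60.7 ± 2.28 in IN libraries (± SD, n = 8), a log2 change of 0.91 ± 0.05 (SE; adjusted p = 1.2e-07, limma). By signed log2 change, ordered from the most negative to the most positive, 95.4% of tested genes were below Ano3. By level, 97.1% of tested genes were below Ano3 in IP and 94.8% in IN.

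Ano1, the calcium-activated chloride channel, had the family's largest change after scaling. Its scaled TPM in the F1 to F4 pools were 0.316, 2.17, 0.471 and 0.339 in IP, against 4.88, 4.76, 6.06 and 4.68 in IN. In the M1 to M4 pools they were 0.430, 1.03, 0.726 and 0.205 in IP, against 4.58, 3.50, 6.36 and 4.77 in IN. F2 was the highest of the IP libraries and M2 the next, yet the highest IP library stayed below the lowest IN library. Over the 8 pools it averaged 0.711 ± 0.647 in IP libraries, against 4.95 ± 0.893 in IN libraries (± SD, n = 8), and Ano1 fell by 1.85 on the log2(scaled TPM + 1) scale (SE 0.16; adjusted p = 2.2e-06, limma). Only 4.47% of tested genes had a lower value. On the deposited TPM the log2 change was -0.49, the smallest of the 6 members in size, the fractions overlapped and 6 of 8 pools were lower in IP. Without pool F2 the log2 change was -1.996. The added 1 understates changes at such levels: with 0.1 added in its place the log2 change of Ano1 was -2.92.

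Ano1 was the tested member nearest to the filter, which asked for a mean of 1 deposited TPM in either fraction: it averaged 1.43 deposited TPM in IP and 2.25 in IN, and the next member below, Ano5, averaged 0.420 and 0.201. In IP, 7.03% of tested genes were at a lower level than Ano1, and in IN 35.9%. In whole-ganglion RNA, fewer cells of a type and less RNA per cell cannot be told apart, so the IN level of Ano1 does not say which cells hold it.

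Ano2, the other calcium-activated chloride channel, stayed below the filter and was not tested. It ranged over 0.0635 to 0.108 scaled TPM in IP, with a median of 0.0832, and over 0.0510 to 0.136 in IN, with a median of 0.0683. The fractions overlapped, and 6 of 8 pools were higher in IP. On the deposited TPM the fractions did not overlap, at 0.137 to 0.290 in IP and 0.0250 to 0.0630 in IN, and all 8 pools were higher in IP. Neither channel therefore exceeded 2.17 scaled TPM in any IP library.

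Ano6, the phosphatidylserine scramblase, was moderately abundant in both fractions. It had a lowest value of 12.7, a median of 15.3 and a highest of 18.9 scaled TPM in IP, against 18.7, 21.5 and 22.3 in IN. The fractions overlapped only in that the highest IP library, F2, exceeded the lowest IN library; all 8 pools were lower in IP. Ano6 fell by 0.41 on the log2 scale after scaling, and not on the deposited TPM (SE 0.06; adjusted p = 8.4e-05, limma), with a ratio of the IP mean to the IN mean of 0.746. Without pool F2 the log2 change of Ano6 was -0.43.

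Ano4, a less studied member, was lower in IP with no overlap. It had 5.55, 6.29 and 8.22 scaled TPM as lowest, median and highest values in IP, against 13.2, 15.1 and 15.7 in IN. The highest IP library was again F2. Ano4 fell by 1.10 on the log2 scale after scaling, and not on the deposited TPM (SE 0.07; adjusted p = 2.5e-07, limma), and by 1.16 without pool F2.

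Ano8, reported to tether the endoplasmic reticulum to the plasma membrane, was higher in IP with no overlap between the fractions. It had 15.3, 20.97 and 26.3 scaled TPM as lowest, median and highest values in IP, against 9.66, 10.6 and 11.3 in IN. F2 was here the lowest IP library, and all 8 pools were higher in IP. The log2 change was 0.89 ± 0.08 (SE; adjusted p = 2.7e-06, limma), and 0.95 without pool F2.

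Ano10, mutated in a recessive ataxia in humans, had a smaller increase. It had 14.0, 20.7 and 21.6 scaled TPM as lowest, median and highest values in IP, against 9.63, 14.4 and 15.8 in IN. The lowest IP libraries, F4 at 14.0 and F2 at 14.3, lay within the IN range; the other 6 were above it, and within each pool IP was higher. The log2 change was 0.46 ± 0.08 (SE; adjusted p = 0.000373, limma), with pools ranging over 0.08 in F4 to 0.95 in M2. Without pool F2 it was 0.49. Across the family, Ano1, Ano3, Ano4 and Ano8 had IP and IN libraries that did not overlap, a property of 48.4% of all tested genes.

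**Figure D2:**
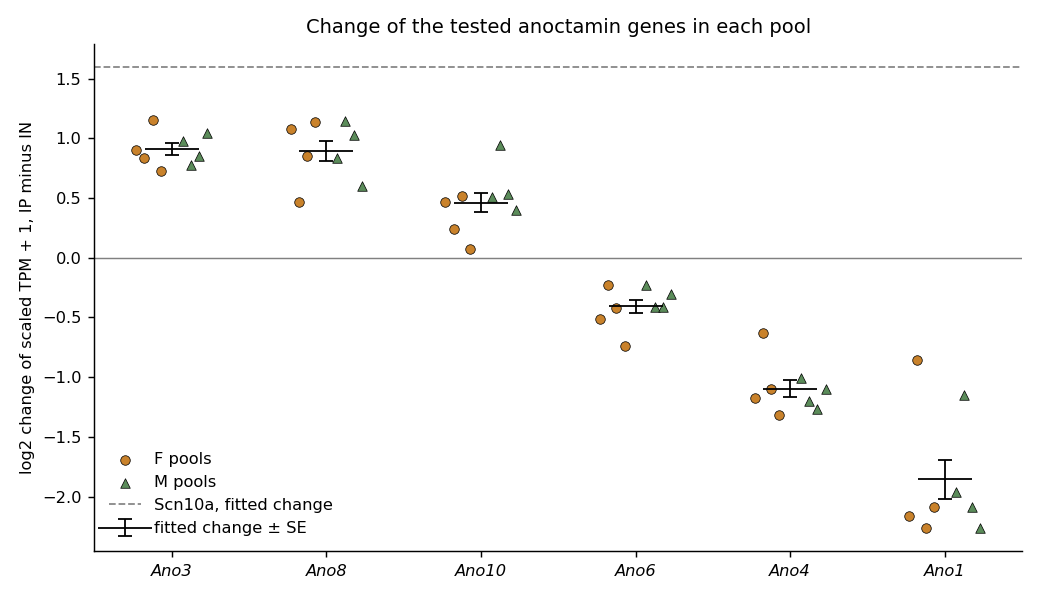
Log2 change between IP and IN of the 6 tested anoctamin genes, with positive values higher in IP: points are the 8 pools, horizontal bars the fitted change, whiskers its SE, and the dashed line Scn10a at 1.60. All 8 pools lie above 0 for Ano3, Ano8 and Ano10 and below 0 for Ano6, Ano4 and Ano1 (Ano6 and Ano4 are above 0 on the deposited TPM), and pool F2 has the smallest decrease of Ano1, at -0.86.

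Of the 6 tested members, Ano4 and Ano6 had a sign that depends on the scaling between libraries. On the deposited TPM the median of all genes moved by 1.84 on the log2 scale, 94.0% of called genes were higher in IP against 51.0% after scaling, and Ano4 and Ano6 were at 0.97 and 1.75. Relative to that median, Ano4 was at -0.86 and Ano6 at -0.08, Ano1 at -2.33, Ano3 at 1.32, Ano8 at 1.16 and Ano10 at 0.75. The directions above are therefore relative to the typical gene. The SE of the Ano6 change on the deposited TPM was 0.14, but it belongs to the change against 0. The distance of Ano6 from the median was not tested. With 0.1 added to the scaled TPM, Ano6 was at -0.45 relative to the median of all genes. After quantile normalization, 61.1% of called genes were higher in IP, and the members lay at -1.70, -1.12 and -0.60 for Ano1, Ano4 and Ano6 and at 0.29, 0.41 and 0.75 for Ano10, Ano3 and Ano8, relative to a median of 0.15.

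The remaining members were close to 0. Ano5, mutated in recessive muscular dystrophies in humans, ranged over 0.101 to 0.355 scaled TPM in IP and 0.139 to 0.763 in IN, and was lower in IP in 8 of 8 pools; on the deposited TPM it was higher in IP in 8 of 8 pools. Ano7, known for its expression in the human prostate, was listed at 0 in 1 IP library and reached 0.120 in IP and 0.175 in IN. Ano9 was listed at 0 in 5 IP and 2 IN libraries, with highest values of 0.00789 in IP and 0.0284 in IN. On the deposited TPM, 6 of 8 pools were higher in IP for Ano7, against 1 of 8 after scaling. With no filter, Ano5 and Ano7 passed the adjusted threshold with log2 changes of -0.27 and -0.04, on a scale that the added 1 compresses at these levels.

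Since TPM are per length, the members could be ordered within each library. Neighbours were compared by an exact sign-flip permutation test over 8 libraries, two-sided, with Benjamini-Hochberg adjustment over the neighbours of a fraction. The smallest raw p it can give is 0.00781. The test measures the spread between libraries only. A bias in the TPM of a gene that repeats in every library is not seen by it, in either fraction. Neighbours were set by the mean levels of the same libraries. In IP the order was Ano3, Ano8, Ano10, Ano6, Ano4, Ano1, Ano5, Ano2, and 6 of the 7 neighbouring steps differed beyond the spread. The exception was Ano8 over Ano10, a 1.07-fold difference seen in 5 of 8 libraries (exact permutation adjusted p = 0.414). Ano3 exceeded Ano8 5.64-fold and Ano4 exceeded Ano1 11.8-fold (exact permutation adjusted p = 0.0137 for each). Ano10 exceeded Ano6 1.22-fold in 7 of 8 libraries (exact permutation adjusted p = 0.0456), but this call was lost in 7 of the 8 cases that leave out 1 library (exact permutation adjusted p up to 0.0911). With 7 libraries the smallest raw p of the permutation test rises to 0.0156. Such a loss can therefore come from the smaller number of libraries as well as from dependence on 1 library. The other 5 called steps held in all 8 cases.

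In IN the order was different after Ano3: Ano6, Ano4, Ano10, Ano8, Ano1, Ano5, Ano2, Ano7, with 6 of 8 steps beyond the spread. Ano4 over Ano10 was 1.10-fold (exact permutation adjusted p = 0.0804) and Ano2 over Ano7 1.44-fold (exact permutation adjusted p = 0.250). Ano3 exceeded Ano6 2.90-fold, and Ano8, the runner-up in IP, lay below Ano10 by 1.29-fold (exact permutation adjusted p = 0.0312). That step was lost in 6 of the 8 cases that leave out 1 library, Ano4 over Ano10 passed in 1 of them, and the other 5 called steps held in all 8. Ano9 had values of 0 in both fractions, as did Ano7 in IP, and these steps were not tested.

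Expressed as shares of the family's summed TPM, which do not depend on the scaling between libraries, Ano3 took 64.6% ± 2.99 in IP and 48.1% ± 1.24 in IN (± SD over 8 libraries). The share of Ano6 was 8.80% ± 1.17 in IP and 16.6% ± 0.869 in IN, and that of Ano4 3.62% ± 0.496 in IP and 11.8% ± 0.697 in IN. Ano1 took 0.409% ± 0.383 in IP and 3.91% ± 0.618 in IN. For these 4 genes the IP and IN shares did not overlap, whereas the share of Ano10 was 10.7% ± 1.43 in IP and 10.8% ± 1.28 in IN. Shares add up to a fixed total, so the larger Ano3 share in IP by itself makes the other shares smaller. A smaller share is therefore not by itself a lower level. In scaled TPM, the ratio of the IP mean to the IN mean of Ano10 was 1.41, although its share was flat. In the median library, Ano3 was 291 times Ano1 in IP and 13.0 times Ano1 in IN. The ratio of Ano3 to Ano8 differed little, at a median of 5.63 in IP and 5.82 in IN. The family's summed level was 178 ± 16.1 scaled TPM in IP and 126 ± 4.91 in IN.

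**Figure D3:**
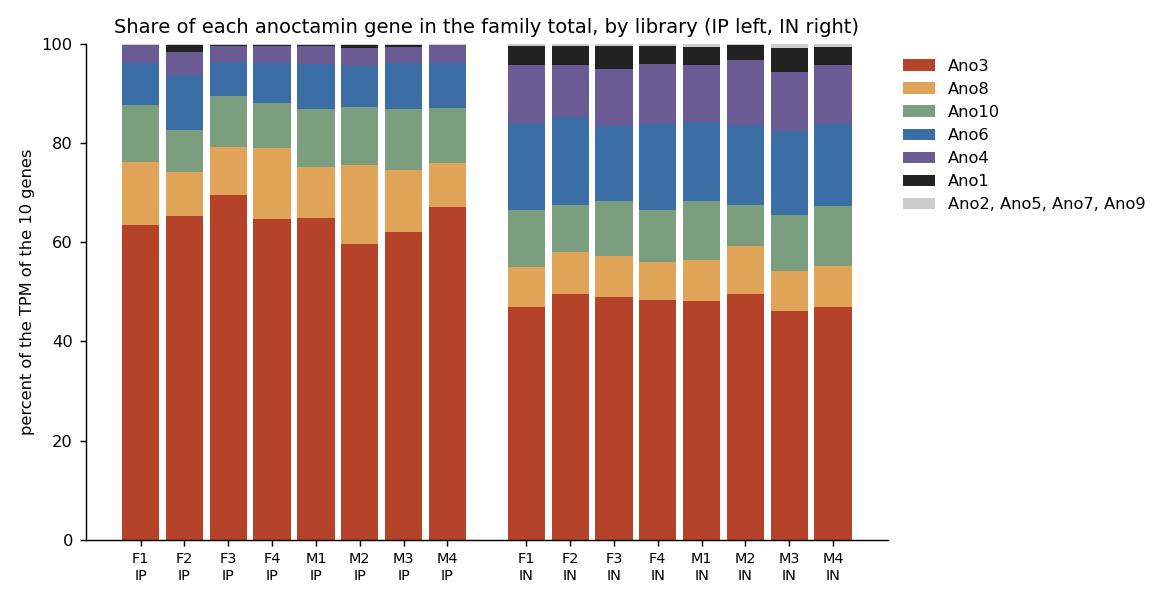
Share of the family's summed TPM (percent) held by each anoctamin gene in each library, IP libraries left and IN libraries right. Ano3 holds 59.7% to 69.5% in IP and 46.2% to 49.5% in IN, and Ano6, Ano4 and Ano1 take smaller shares in every IP library than in any IN library.

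The sexes were compared within each fraction and in their change between fractions, and no member passed the adjusted threshold in any of the 3 comparisons. In IP, 8 of 16096 genes did (0.0497%; 362 at an unadjusted p under 0.05), in IN 13 of 16092 (0.0808%; 774 unadjusted), and for the difference of the changes 3 of 16099 (0.0186%; 448 unadjusted). For all 10 members the F and M libraries overlapped in both fractions. The share of all genes with such an overlap was not computed, so this count is no result about the family. The largest tested difference was in Ano10 in IP, at 20.1, 14.3, 21.4 and 14.0 scaled TPM in F pools, against 21.6, 19.5, 21.5 and 21.2 in M pools. Its log2 difference was -0.27, with a 95% interval of -0.59 to 0.04 (adjusted p = 0.9999, limma). Without pool F2 that difference was -0.19. For Ano3 the interval in IP was -0.26 to 0.32 around 0.03, and for Ano1 -0.55 to 0.77 around 0.11. The Ano1 interval is wide enough to hold differences of the size estimated for Ano10 in either direction.

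The split of the family was present in each sex. In F pools Ano3, Ano8 and Ano10 had log2 changes of 0.90, 0.88 and 0.33, and Ano6, Ano4 and Ano1 -0.48, -1.05 and -1.84; in M pools the values were 0.91, 0.90 and 0.60, and -0.34, -1.14 and -1.87. All 6 were called in both sexes, where 65.9% of genes were called in F pools and 70.4% in M pools; by direction, 32.6% of genes were higher and 33.4% lower in F pools, and 35.3% higher and 35.2% lower in M pools. The F call of Ano10 (adjusted p = 0.0243, limma) did not hold without pool F1 (0.28, adjusted p = 0.0980), without pool F3 (0.26, adjusted p = 0.103) or without the pool as a block (0.33, adjusted p = 0.0740). The difference of the Ano10 changes between sexes was -0.27 (95% interval -0.60 to 0.06; adjusted p = 0.9999, limma).

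Genes linked to anoctamins by pathway, similar function or structure were read from lists chosen with earlier results of these data known. Directions are again relative to the typical gene. Of all tested genes, 79.4% were called, 40.5% higher and 38.9% lower in IP. The counts of called genes in each list below stand beside these shares, and a call alone is ordinary. On the deposited TPM, 6 of 16 called chloride transport genes, 5 of 24 called Gq and store calcium genes, 7 of 14 called scramblases and flippases, 2 of 5 called TMC and TMEM63 genes and 1 of 5 called potassium channels had the other sign. Relative to the median of all genes on that scale, 1, 0, 2, 0 and 0 of these called genes lay on the other side. Of the genes named below as lower in IP, Slc12a2, Itpr3, Tmc7, Tmc4 and Kcnn4 were those above 0 on the deposited TPM, and each stayed below that median.

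Of 26 chloride transport genes 20 were tested, and 8 were higher in IP, 8 lower and 4 not called, with a median log2 change of 0.05. Ttyh1 and Slc12a5, the potassium-chloride exporter of central neurons, fell by 2.63 and 1.54 on the log2 scale; Tmem206, the acid-activated chloride channel, rose by 0.69, and Lrrc8d, a subunit of volume-regulated anion channels, by 1.20. Slc12a2, named for its role after its values were seen, averaged 20.01 ± 2.28 scaled TPM in IP and 39.6 ± 1.55 in IN (± SD over 8 libraries), and its log2 change was -0.95 ± 0.05 (SE). On the deposited TPM the sign of Slc12a2 turned, at 1.25, or -0.59 relative to the median of all genes.

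Of 29 genes of Gq and store calcium signalling, the route that opens Ano1, 26 were tested, with 17 higher, 7 lower and 2 not called (median 0.38). Trpv1 and Mrgprd, both among those higher in IP, are also in the list of nociceptor markers. Mrgpra3, an itch receptor, and Plcb3, the phospholipase of many nociceptors, rose by 1.76 and 1.63 on the log2 scale. Itpr1, a store calcium release channel reported to couple to Ano1 in rat sensory neurons, and Itpr3, of the same family, fell by 2.06 and 1.89: Itpr1 averaged 4.18 ± 2.21 scaled TPM in IP and 19.3 ± 2.67 in IN (± SD over 8 libraries).

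Of 19 other scramblases and flippases 16 were tested, with 5 higher, 9 lower and 2 not called (median -0.24); Plscr4 and Plscr2 fell by 2.16 and 2.06, and Atg9a, the scramblase of autophagosomes, and Plscr3 rose by 1.02 and 0.65. Of 11 TMC and TMEM63 genes, the anoctamins' structural relatives, 6 were tested, with 3 higher, 2 lower and 1 not called (median 0.38); Tmem63c and Tmem63a rose by 1.303 and 0.78, and Tmc7 and Tmc4 fell by 0.35 and 0.16. Of 7 calcium- or sodium-activated potassium channel genes 6 were tested, with 4 higher, 1 lower and 1 not called (median 0.32). Kcnt1, which encodes Slack, averaged 49.6 ± 6.92 scaled TPM in IP and 25.7 ± 3.36 in IN (± SD over 8 libraries), a log2 change of 0.92 ± 0.06 (SE), beside 0.91 ± 0.05 for its reported partner Ano3. Kcnn1 rose by 1.15, Kcnn4 fell by 1.32, and Kcnma1, at -0.07, was not called.

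**Figure D4:**
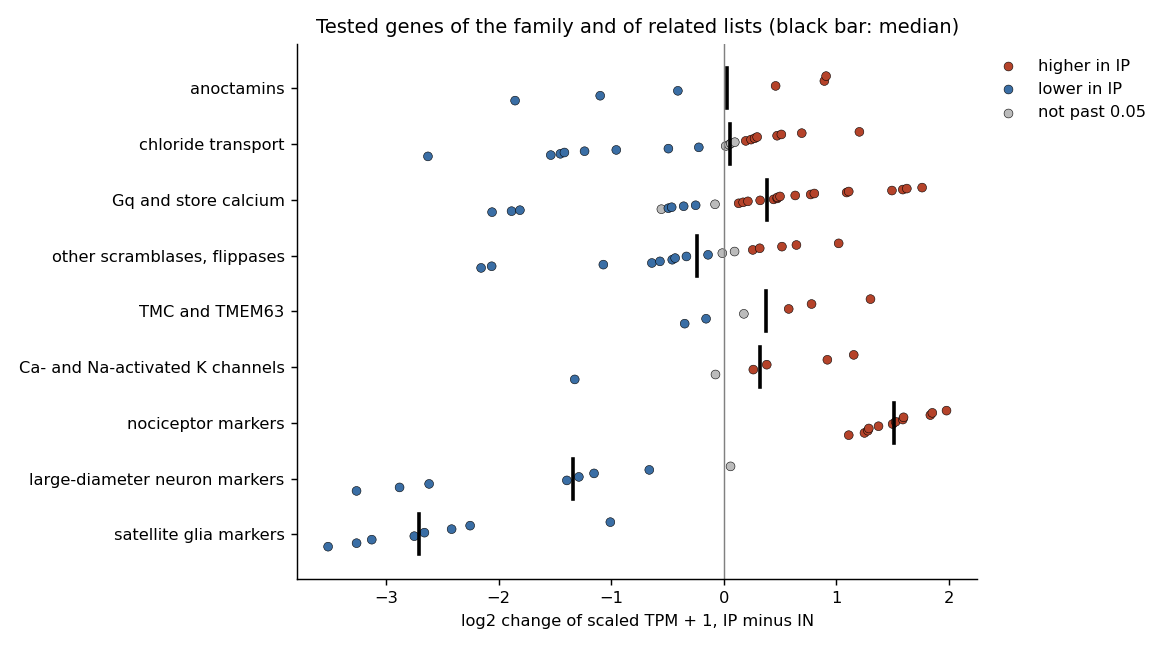
Log2 change between IP and IN of each tested gene in the list of anoctamins, 5 lists of related genes and 3 marker lists; positive values are higher in IP, and black bars are medians. The anoctamins and the 5 related lists have medians between -0.24 and 0.38 and members on both sides of 0, whereas the nociceptor markers all lie above 0 and the satellite glia markers all below. On the deposited TPM, 1 satellite glia marker, Glul, is above 0.

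Markers of other cell types moved with the fraction. All 12 nociceptor markers were higher in IP (median 1.51), and 7 of 8 large-diameter neuron markers were lower (median -1.34). Over all tested genes, 40.5% were called higher and 38.9% lower. All tested markers of satellite glia (8 genes, median -2.70), Schwann cells (8, -2.49), fibroblasts (6, -2.65), endothelium (6, -1.92), mural and smooth muscle cells (5, -1.28), macrophages (5, -2.25) and skeletal muscle (8, -2.12) were lower. On the deposited TPM, 3 of 7 called large-diameter neuron markers and 2 of 5 mural markers had the other sign. So did 1 marker each of satellite glia, Schwann cells, fibroblasts, macrophages and skeletal muscle. Relative to the median of all genes on that scale, no called marker lay on the other side. The summed level of satellite glia markers ranged over 126 to 284 scaled TPM in IP and 947 to 1254 in IN, and that of mural markers over 32.1 to 44.3 in IP and 75.7 to 83.1 in IN. No marker was at 0 in all IP or all IN libraries. The part of these cells in the levels of Ano1, Ano4 and Ano6 was not tested.

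Among IP libraries the satellite glia sums were 130, 284, 142 and 234 scaled TPM in F1 to F4 and 147, 245, 162 and 126 in M1 to M4. The highest sum fell in F2, the library with the highest Ano1, and the lowest in M4, the library with the lowest Ano1. F4 had a high sum and a low Ano1 level. Satellite glia were not particular in this. Endothelial and macrophage sums were also highest in F2, at 8.43 and 24.4, and lowest in M4, at 2.03 and 6.33. Of the 9 marker lists, 6 had their highest IP sum in F2, 2 in M2 and 1 in F3. Among IN libraries the skeletal muscle sums were 151, 237, 152 and 162 in F1 to F4 and 404, 44.9, 453 and 287 in M1 to M4. Ano5 in the same IN libraries was 0.332, 0.466, 0.321 and 0.380 scaled TPM in F pools and 0.601, 0.139, 0.763 and 0.559 in M pools. Its lowest and highest libraries, M2 and M3, were also the lowest and highest in muscle markers. These pairs of values were picked after the data were seen, and the part of muscle or glial RNA in them was not tested.

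**Figure D5:**
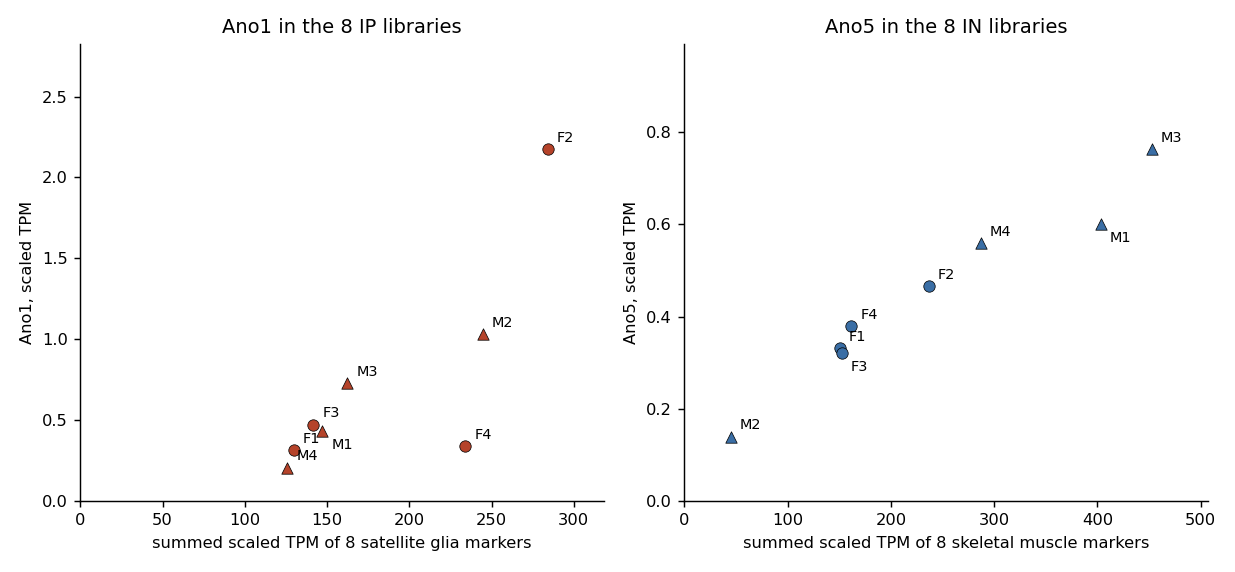
Left, Ano1 against the summed level of 8 satellite glia markers in the 8 IP libraries; right, Ano5 against the summed level of 8 skeletal muscle markers in the 8 IN libraries, all in scaled TPM (circles F pools, triangles M pools). F2 is highest on both axes at left, and at right M2, with 44.9 and 0.139, and M3, with 453 and 0.763, mark the ends. Endothelial and macrophage sums, not drawn, were also highest in F2 among IP libraries.

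The genes whose levels followed Ano1 and Ano3 most closely over the 16 libraries are given as a description, since the libraries share pools and fall into an IP and an IN cluster. Nearest to Ano1 were Stard8 (r = 0.99; 1.20 scaled TPM in IP and 8.40 in IN), the chemokine gene Cxcl12 (r = 0.989; 1.09 and 13.6) and Gm36944 (r = 0.989). Nearest to Ano3 were Tmem200a (r = 0.991; 20.4 in IP and 10.2 in IN), Ubash3b, a protein tyrosine phosphatase (r = 0.990; 53.7 and 39.8), and Nt5e, the ectonucleotidase that makes adenosine in nociceptors (r = 0.989; 25.3 and 12.0). Within the family, Ano4 had r = 0.957 with Ano1, only rank 1484 among tested genes. Ano8 had r = 0.867 with Ano3, only rank 2521.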

How the data were processed

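RNA from pooled mouse DRG was sequenced after ribosomal RNA depletion, in 16 libraries (8 IP, 8 IN). The authors deposited TPM per gene; FastQC, STAR 2.2.1, StringTie 1.3.5 and GRCm38.p5 are named per the submitters' processing notes, and no source used here gives the annotation release or says whether reads were counted by strand. The deposited column has the same total in every library, and the 92 ERCC spike-in entries were left out. Since TPM keep no depth, no counting intervals are given.

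Genes averaging at least 1 deposited TPM in the 8 IP or 8 IN libraries were kept. Values were scaled by the median of ratios (factors 1.64 to 2.68 in IP, 0.374 to 0.530 in IN), 1 was added and log2 taken, so fold changes of low genes are understated. Tests used limma 3.58.1 in R 4.3.3 (trend), with Benjamini-Hochberg adjustment over all genes tested and a threshold of 0.05, two-sided. Pool was a block for IP against IN and for the interaction with sex, since each pool gave both libraries; within sex, same-pool deviations correlated at 0.0137 to 0.413 in F and 0.00671 to 0.323 in M. F and M pools were not blocked.

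Levels within libraries were ordered by exact permutation. All members were named, with up to 4 genes per list (largest and smallest changes) and the 3 nearest genes of Ano1 and Ano3. Of the genes overlapping members, those whose span touches a member's exon were named. The members and lists were chosen with earlier results of these data known. Alternatives were deposited TPM, quantile normalization, 0.1 as pseudocount, other filters, no block, and leaving out each pool or library. Methods were tested on simulated data. Start regions come from RefSeq.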

Additional observations from a re-analysis of the deposited data

Results flagged for a closer look

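Of 40 groups of 4 libraries (10 members, 4 groups), 3 held a library far from the other 3; chance gives about 1 in 20. Ano1 in F IP libraries had 2.17 scaled TPM in pool F2, against 0.316 to 0.471 in the other F pools. Ano1 in F IN libraries had 6.06 scaled TPM in pool F3, against 4.68 to 4.88 in the others. Ano9 in M IP libraries had 0.00652 scaled TPM in pool M4 and was listed at 0 in the other M pools. Any value above 0 would have been flagged there, so the chance rate does not hold for that group.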

How the results depend on the processing

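In the comparison of IP with IN over both sexes, the 6 members kept their direction and call under every alternative run except the deposited TPM, where 5 members were higher and 1 lower (5 and 1 in F pools, 5 and 0 in M pools). There Ano4 was at 0.97, 0.90 and 1.05 and Ano6 at 1.75, 1.56 and 1.95 in both sexes, F pools and M pools, because the median of all genes moved by 1.84, 1.73 and 1.94; Ano1 in M pools was at -0.44 (adjusted p = 0.0569, limma). With no filter more genes were tested and called, 21020 over both sexes against 12783 and 17144 in M pools against 11334, and 5 members were lower over both sexes, Ano5 and Ano7 being added. Leaving out each pool gave 12432 to 12810 genes and 3 members each way, with Ano1 at -1.996 to -1.80. With no replicate block the calls were 12463 over both sexes, 10504 in F pools and 10851 in M pools, and of the member calls the block changed only that of Ano10 in F pools, at 0.33 without it. Of the neighbouring steps in the order of levels, 5 to 6 passed in IP and 5 to 6 in IN without single libraries, against 6 in each. Sex comparisons called 0 members throughout. F and M libraries share only a number (correlations of -0.217 to 0.101 in IP and -0.299 to 0.0937 in IN); with that number as a replicate block 5 genes were called in IP against 8, and 8 in IN against 13. Leaving out single libraries gave 5 to 12 genes in IP and 10 to 13 in IN. The difference of the changes called 11 genes on deposited TPM, 1 after quantile normalization, 0 with no filter and 0 to 6 without single pools, against 3. Uncalled sex differences changed sign as follows; the cause was not tested. On deposited TPM Ano4 and Ano3 were at -0.066 and -0.094 in IP, Ano8 and Ano4 at 0.061 and 0.077 in IN, and Ano1 and Ano4 at -0.10 and -0.14 for the difference of the changes. After quantile normalization Ano1, Ano8 and Ano3 were at -0.043, 0.0052 and 0.026 for that difference. Leaving out single libraries, F against M in IP ranged over -0.19 to 0.24 for Ano1, -0.072 to 0.095 for Ano3, -0.049 to 0.12 for Ano4 and -0.17 to 0.040 for Ano8. In IN it ranged over -0.028 to 0.21 for Ano1, -0.064 to 0.0015 for Ano4 and -0.15 to 0.072 for Ano10. For the difference of the changes, the ranges were -0.30 to 0.26 for Ano1, -0.092 to 0.050 for Ano3, -0.050 to 0.18 for Ano4 and -0.12 to 0.12 for Ano8. Depth is unknown, so how it limits the 4 members below the filter cannot be given.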
